A study of Mus musculus with 33 samples.

Results

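The rows examined are those of the mitochondrial chromosome (chrM), taken from a table of normalised read counts by a single rule: a position on chrM and reads in any library. The rule gave 13 rows of 56414 in the table, of which 36109 had reads. Tumour-free C57Bl/6 mice were left untreated or drank water with 0.5% nicotinamide (NAM, an amide form of vitamin B3 from which cells make NAD+) for 1, 3 or 14 days. Libraries of poly(A) RNA carry the tissue label spleen (5 in each group) or lymph node (3 untreated; NAM for 1 day 2, 3 days 4, 14 days 4). The study used female wild-type mice, and neither the age of these animals nor the number behind each library is given in the labels.

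The mitochondrial genome is a small circle that is copied many times per cell and transcribed from both strands as long precursors. Excised tRNAs punctuate the precursors and release the rRNAs and the mRNAs. Its mRNAs encode subunits of complex I (the mt-Nd genes), complex III (mt-Cytb), complex IV (the mt-Co genes) and the ATP synthase (mt-Atp6 and mt-Atp8), and all other subunits come from nuclear genes. Complex I oxidises NADH to NAD+, the cofactor that nicotinamide feeds. The site of that reaction lies in nuclear-encoded subunits, and the mitochondrially encoded ones form part of the membrane arm that pumps protons. Most mitochondrial mRNAs carry short poly(A) tails, whereas mt-Nd6 mRNA is known for having little or no tail, tRNAs have none, and poly(A) capture of the rRNAs is partial. The values of rows over mt-Nd6 and over rRNA and tRNA genes therefore give what was captured and not the abundance of these RNAs.

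The tissue labels went against their defining markers. Spic, which drives the red pulp macrophage programme, was between 774.3 and 1295 normalised counts in the 20 libraries labelled spleen and between 6117 and 10490 in the 13 labelled lymph node. Glycam1, a product of the high endothelial venules of lymph nodes, was between 108200 and 214200 under the spleen label and between 1.585 and 12.38 under the lymph node label. The labels are used below only as labels, and since both sets were scaled separately, tests stayed within a label. Recovered reads numbered 18325061 to 54830743 per library under the spleen label and 30424968 to 46733974 under the lymph node label. Several libraries stood apart. Replicate 1 at 3 days under the spleen label had mitochondrial values unlike the other 4 of its group, untreated replicate 3 (spleen label) and untreated replicate 2 (lymph node label) were high in the low-level mitochondrial rows, and replicate 5 at 1 day (spleen label) had a low mitochondrial share. Replicate 1 at 1 day under the lymph node label held 106300 summed normalised counts of 8 pancreatic acinar genes, against 14.29 to 26.52 in the other 12. Values with and without these libraries are given where they bear on a result.

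The 13 rows cover the genome unevenly (positions on mm10, gene names from the GENCODE annotation). Rows overlap both rRNA genes, 10 of the 13 protein genes and 15 of the 22 tRNA genes. No chrM row overlaps mt-Co2, mt-Atp8 or mt-Atp6, and only 188 of the 784 bases of mt-Co3 fall in a row. No row is specific to a tRNA: each of the 15 lies in, or is touched by, a longer row. The mt-Rnr1 row (12S rRNA) spans bases 68 to 957, the mt-Rnr2 and mt-Nd1 row (16S rRNA and a complex I subunit) 1094 to 3841, the mt-Nd2 row 3845 to 5171 and the mt-Co1 row (the catalytic subunit of complex IV) 5325 to 6941. The mt-Nd3 row spans 9459 to 9804, the mt-Nd4l and mt-Nd4 row 9876 to 11544, and the mt-Nd5 and mt-Cytb row 11742 to 15288. A control region row, 15356 to 16294, holds the non-coding region where transcription and replication start, plus the tRNA gene mt-Tp. The other 5 rows lie within or across these: an inner mt-Rnr1 row (332 to 623), an inner mt-Nd1 row (3401 to 3555), a mt-Co3 and mt-Nd3 row (9203 to 9888), a mt-Nd6 row (11720 to 14070, which also spans mt-Nd5) and an inner control region row (15763 to 16189). mt-Nd6 is the protein gene encoded on the opposite strand. Strand use in the counting is not given in the sources used here, nor is the way reads were divided among nested rows.

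Both inner gene rows had the largest changes among the 13 chrM rows at 1 day under both labels, so their sequence is shown, read from the mm10 transcripts on the plus strand. Capitals are not used in them. The inner mt-Rnr1 row spans 292 bases of the 12S rRNA gene (chrM:332-623), with 32.9% G and C, and the inner mt-Nd1 row spans 155 bases of coding sequence (chrM:3401-3555), with 35.5% G and C. The whole genes have 35.8% (mt-Rnr1) and 37.6% (mt-Nd1). Per kilobase, the inner rows held far fewer normalised counts than the rows around them in untreated libraries labelled spleen (434.4 against 15300, and 3278 against 102700). Their values therefore do not give the level of the RNA over their span, and which reads they count is not given. A fall in them is not shown to be a fall of 12S rRNA or of mt-Nd1 mRNA.
inner mt-Rnr1 row: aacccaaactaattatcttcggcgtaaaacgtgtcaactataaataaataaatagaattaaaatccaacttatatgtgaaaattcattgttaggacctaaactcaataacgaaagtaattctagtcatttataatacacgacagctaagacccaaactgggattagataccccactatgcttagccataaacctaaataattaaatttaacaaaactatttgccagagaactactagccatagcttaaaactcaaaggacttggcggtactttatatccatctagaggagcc
inner mt-Nd1 row: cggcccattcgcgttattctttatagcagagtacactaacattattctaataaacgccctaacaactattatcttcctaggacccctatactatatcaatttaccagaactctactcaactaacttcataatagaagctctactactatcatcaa

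mt-Co2 and mt-Atp6, with no chrM row, and mt-Co3, covered in small part, have a copy in the nuclear genome, on chromosome 1. Where the letters are the same, reads of the pair cannot be told apart. Annotated pseudogenes there match mt-Co2 (Gm28661, 681 aligned bases), mt-Atp6 (Gm10925, 678) and mt-Co3 (Gm28437, 783) with 0 differing bases, and likewise mt-Nd4l (Gm10222, 294) and part of mt-Nd4 (Gm28439, 876). The copy of mt-Nd3 (Gm28438, 345 aligned bases) differs by the single substitution T3C, counted from the first base of the gene, and the copy of part of mt-Co1 (Gm29216, 492 aligned bases) by 6 bases, for 98.78% identity. The start of mt-Nd3 and of its copy shows the difference, with the differing base in capitals. The start of mt-Co2 and of its copy shows none.
mt-Nd3, chrM:9459-9481, plus strand: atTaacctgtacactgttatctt
Gm28438, chr1:24613097-24613119, minus strand: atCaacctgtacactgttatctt
mt-Co2, chrM:7013-7072, plus strand: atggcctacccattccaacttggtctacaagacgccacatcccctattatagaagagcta
Gm28661, chr1:24615506-24615565, minus strand: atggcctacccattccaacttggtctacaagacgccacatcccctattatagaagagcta
4 rows of the table lie over this copy: a mt-Atp6 and mt-Co3 copy row, an inner mt-Atp6 copy row, a mt-Co2 copy row and a mt-Co1 copy row, the last with 0 differing bases from mt-Co1 over its length. They are no members of the set and are given as neighbours that can hold mitochondrial reads. In the 5 untreated libraries labelled spleen the mt-Atp6 and mt-Co3 copy row held 511990 to 624640 normalised counts and the mt-Co2 copy row 189490 to 231180, as high as most chrM rows.

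Compared per kilobase of row, mt-Co1 was by far the highest member under both labels. In the untreated libraries labelled spleen it stood at 747200 ± 43300 normalised counts per kilobase (SD, n = 5). The mt-Nd4l and mt-Nd4 row (222600), the mt-Nd5 and mt-Cytb row (196900) and the mt-Nd2 row (155100) followed, with ranges that do not overlap from one to the next. The mt-Rnr2 and mt-Nd1 row (102700) and the mt-Nd3 row (87100) overlapped in range. The mt-Rnr1 row (15300) and the control region row (9426) were lower still. Of the last 5 rows, mt-Nd6 (3287), inner mt-Nd1 (3278), mt-Co3 and mt-Nd3 (1064), inner mt-Rnr1 (434.4) and inner control region (330.0), each overlapped its neighbour in the order. In the 3 untreated libraries labelled lymph node mt-Co1 was again first (552200 ± 27440 per kilobase, SD), and mt-Nd3 (115700) stood second with a range that overlapped that of mt-Nd4l and mt-Nd4 (108900).

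The chrM rows took a smaller share of all reads after 1 day of NAM under the spleen label. The untreated libraries gave 9.227%, 9.2%, 9.073%, 9.851% and 8.919% (mean 9.254 ± 0.355, SD), and those at 1 day 7.308%, 8.054%, 6.613%, 8.206% and 4.849% (7.006 ± 1.363). All 5 libraries at 1 day lay below all 5 untreated ones, by ranges that do not overlap, with or without replicate 5. The libraries at 3 days gave 14.0%, 6.54%, 7.181%, 5.951% and 8.291%, so 4 lay below the untreated range and replicate 1 above it. Those at 14 days gave 8.438%, 11.88%, 9.125%, 11.69% and 11.72% (10.57 ± 1.65), 3 above the untreated range, 1 within it and 1 below it. The share under the lymph node label was between 4.895% and 5.685% in all 13 libraries. There 1 day (5.013% and 5.03%) lay below all 4 libraries at 14 days (5.127% to 5.685%), and every other pair of groups overlapped. Shares are described without a test, since they sum over members, and their widest 95% Wilson half-width was 0.014 percentage points, which covers counting error only. In bulk tissue, fewer cells of a kind and less RNA per cell cannot be told apart.

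The make-up of the mitochondrial reads changed more evenly than their total. mt-Co1 took 42.83%, 43.86%, 43.02%, 42.23% and 41.69% of chrM reads in the untreated libraries labelled spleen, and 50.62%, 50.45%, 51.77%, 50.21% and 50% at 1 day. At 3 days it took 40.3%, 50.23%, 49.37%, 49.84% and 49.56%, and at 14 days 42.39%, 42.27%, 43.95%, 41.62% and 41.78%. Without replicate 1 at 3 days, the 9 libraries at 1 and 3 days lay between 49.37% and 51.77%, and the 10 untreated and 14 day libraries between 41.62% and 43.95%. Replicate 1 at 3 days, at 40.3%, lay on the side of the untreated libraries and below them. The same split was narrower under the lymph node label, between 50.56% and 52.59% in the 6 libraries at 1 and 3 days and between 49.02% and 50.36% in the other 7, and these ranges do not overlap. With the chromosome 1 copy rows added to the denominator, a choice made after the values were seen, the ranges under the spleen label stayed apart at 1 day (38.48% to 40.3%, against 32.85% to 34.6% untreated), and those under the lymph node label did so narrowly (35.42% to 36.18% at 1 day, 34.76% to 35.38% untreated). The split of 1 and 3 days from the rest was lost under the lymph node label, where 3 days (35.03% to 36.58%) overlapped the untreated libraries and 14 days (34.59% to 35.62%) overlapped both.

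**Figure D1:**
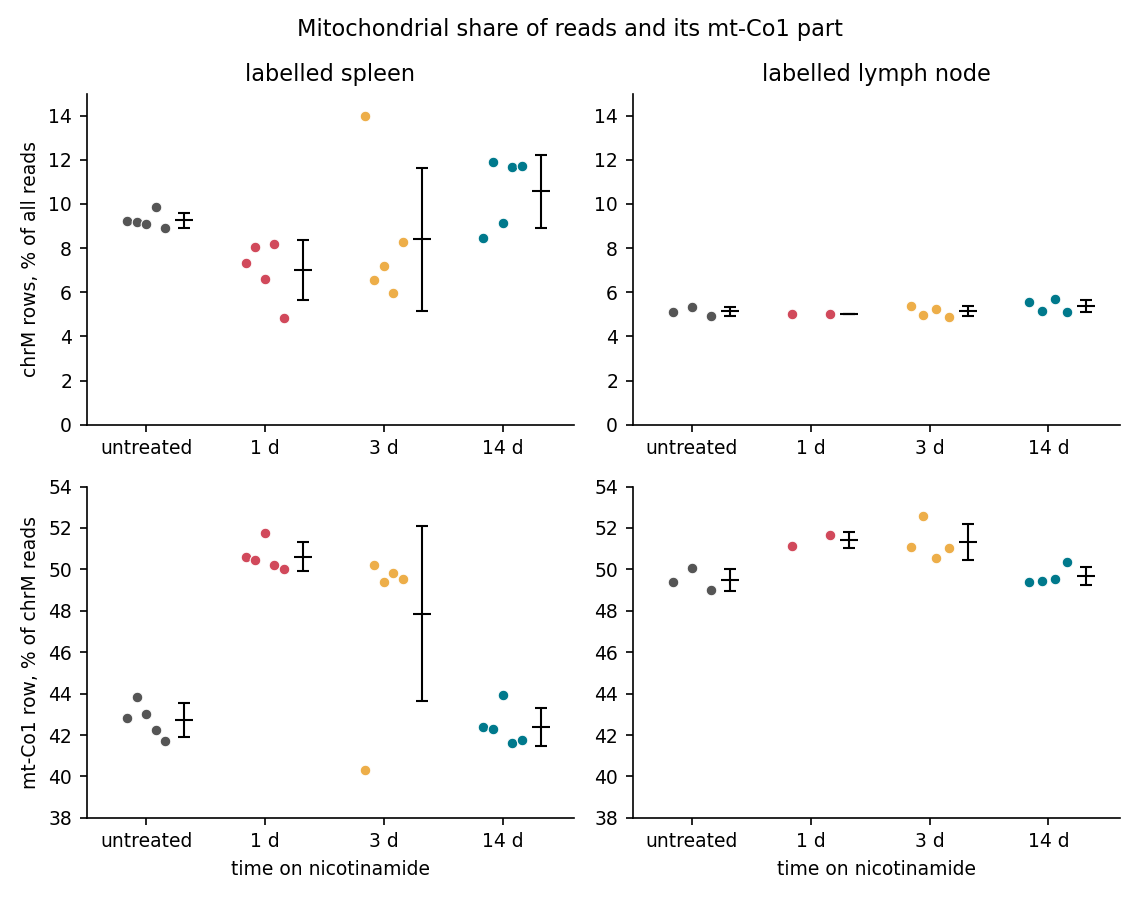
Upper panels: chrM rows as a percent of all reads, by time on nicotinamide and tissue label; lower panels: the mt-Co1 row as a percent of chrM reads, on an axis from 38 to 54. Points are libraries, bars the mean ± SD; under the spleen label mt-Co1 lay at 50% or above in all 5 libraries at 1 day and at 43.86% or below in all 5 untreated ones.

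Relative to mt-Co1, mt-Nd2 and the rows with mt-Nd4 and mt-Nd1 were lower at 1 day under the spleen label. The row of mt-Nd3, another complex I subunit, was 2.266% to 2.879% of mt-Co1 untreated and 1.72% to 2.3% at 1 day, a lower mean (2.04% against 2.49%) with ranges that overlapped by replicate 1 at 1 day alone. mt-Nd2 stood at 16.82%, 16.21%, 17.28%, 17.61% and 17.24% of mt-Co1 in the untreated libraries labelled spleen, and at 10.74%, 9.263%, 8.937%, 10.32% and 10.42% at 1 day. At 3 days the ratio was 18.39% in replicate 1 and between 10.4% and 11.71% in the other 4, and at 14 days between 16.3% and 18.05%. The libraries at 1 day, and those at 3 days other than replicate 1, thus formed one range and the others a second, with nothing between 11.71% and 16.21%. The mt-Nd4l and mt-Nd4 row behaved alike, at 28.66% to 32.61% of mt-Co1 untreated and 19.68% to 23.58% at 1 day, as did the mt-Rnr2 and mt-Nd1 row, at 21.22% to 25.28% and 15.3% to 16.98%. The mt-Rnr1 row overlapped between these groups, at 0.9229% to 1.416% untreated and 1.209% to 1.877% at 1 day. In the lymph node libraries, by label, mt-Nd2 was 11.35% to 11.98% of mt-Co1 untreated. It was 9.651% to 10.66% after 1 day of NAM, 8.667% to 10.03% after 3 days and 9.911% to 11.62% after 14 days, so 1 and 3 days lay below the untreated range and 14 days overlapped it.

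After 1 day of NAM, 6 of the 13 rows fell under the spleen label and none rose, by limma on log2 normalised counts with an adjusted p under 0.05 over all rows tested. Of all 18243 rows tested, 8.05% fell and 8.56% rose. The median log2 fold change of the 13 rows was -0.69, against 0.0054 over all rows tested. An unadjusted p under 0.05 was reached by 9 of the 13, and by 5628 of all 18243 rows tested. The rows that fell were 4 of the 5 low-level rows and 2 of the 8 others, a split by level made after the values were seen.

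With all libraries, the inner mt-Rnr1 row fell furthest among the members. It held 93.5, 79.995, 277.32, 83.259 and 100.12 normalised counts untreated, and 5.7747, 19.616, 20.163, 15.277 and 0 at 1 day. The 0 of replicate 5 corresponds to 0 reads, which at its depth allows up to 3.29 normalised counts. The groups do not overlap, and the log2 fold change was -3.71 ± 0.64 (SE) with a limma adjusted p of 0.00109. Without replicate 5 at 1 day the fall was smaller, and the inner mt-Nd1 row then fell further than this row. The mt-Rnr1 row around the inner mt-Rnr1 row did not follow: it held 11035 to 15450 normalised counts untreated and 13592 to 17628 at 1 day, with a log2 fold change of 0.15 (adjusted p 0.629). As a percent of that row, the inner row was 0.576 to 2.047 untreated and 0 to 0.1483 at 1 day.

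The inner mt-Nd1 row, within the gene of a complex I subunit, held 401.7, 384.91, 1044, 393.93 and 315.84 normalised counts untreated, and 33.686, 73.302, 70.09, 41.664 and 55.871 at 1 day. All 5 values at 1 day lay below all 5 untreated ones, with a log2 fold change of -3.10 ± 0.40 (SE) and a limma adjusted p of 0.000241. Against the row that contains it, the inner row dropped from a range of 0.1225% to 0.3507% to one of 0.01864% to 0.04367%. Without untreated replicate 3, the highest library in both inner rows, the log2 fold changes were -3.38 (inner mt-Rnr1, adjusted p 0.00327) and -2.80 (inner mt-Nd1, adjusted p 0.000761).

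The mt-Nd6 row, which also spans mt-Nd5 on the other strand, held 7701.6, 6501.2, 11860, 6840.9 and 5737.8 normalised counts untreated, and 2443.7, 2870.1, 2165.1, 3873.4 and 2361.9 at 1 day. In these poly(A) libraries it fell without overlap, by 1.48 ± 0.29 on the log2 scale (SE, adjusted p 0.00239). As a percent of the mt-Nd5 and mt-Cytb row it was 0.8605 to 1.71 untreated and 0.4708 to 0.6972 at 1 day. The mt-Co3 and mt-Nd3 row held 502.13, 527.96, 1563.1, 556.72 and 498.53 normalised counts untreated, and 292.59, 248.81, 286.12, 384.7 and 154.47 at 1 day. Here too all libraries at 1 day lay below the untreated ones, with a log2 fold change of -1.30 ± 0.34 (SE, adjusted p 0.0132), or -0.99 (adjusted p 0.0334) without untreated replicate 3.

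**Figure D2:**
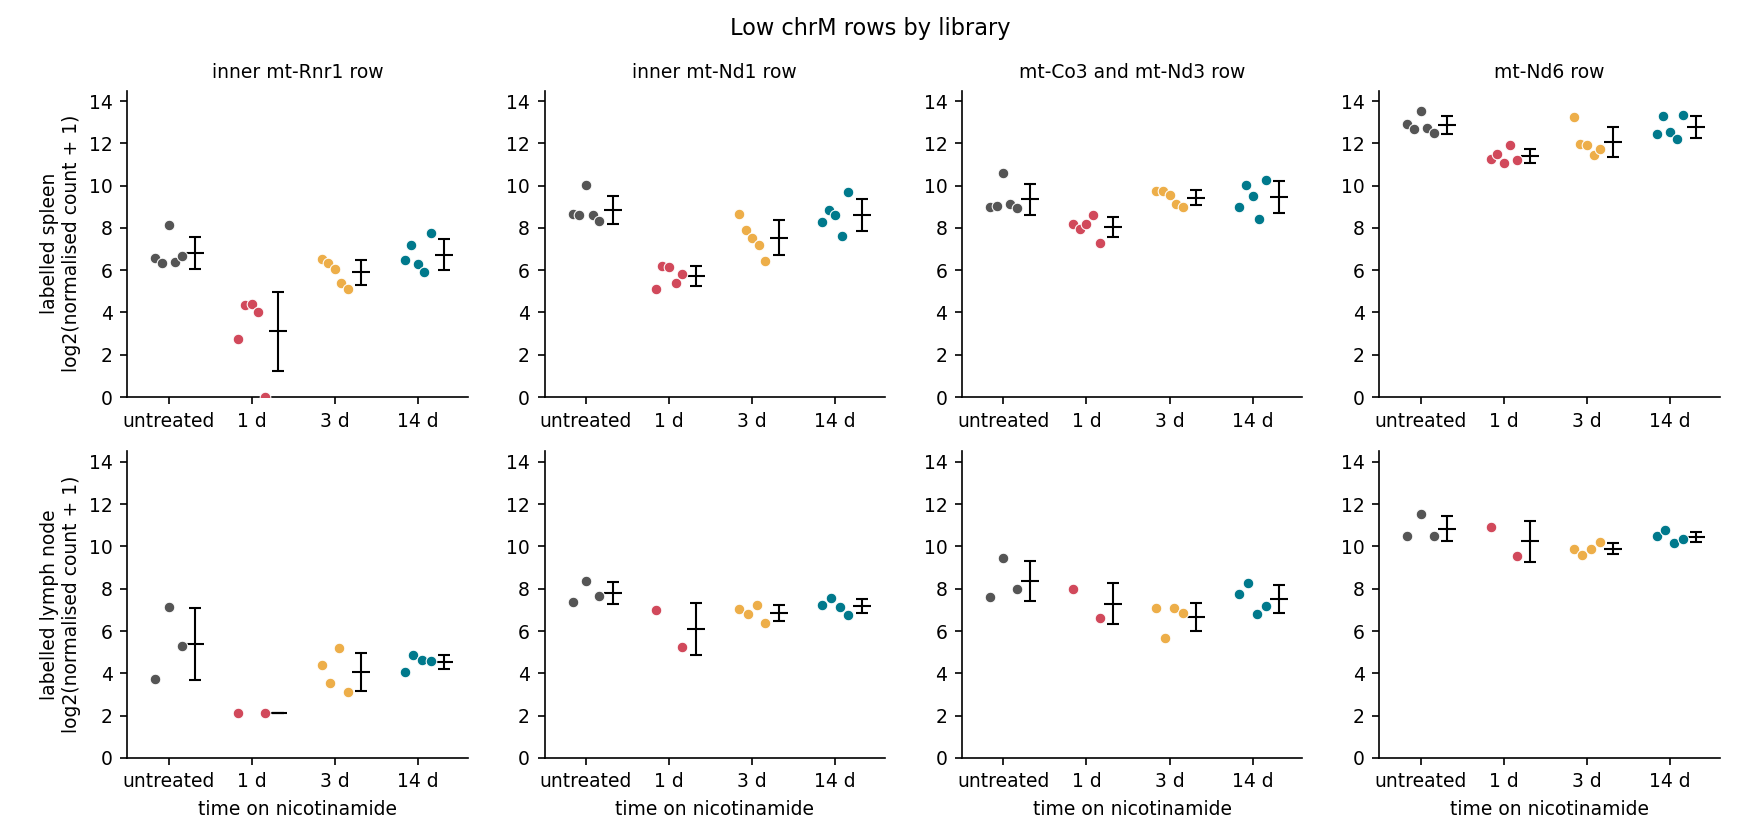
Normalised counts of 4 low-level chrM rows as log2(normalised count + 1), by time on nicotinamide, with a row of panels for each tissue label. Points are libraries, bars the mean ± SD; under the spleen label the libraries at 1 day lie below the untreated ones in all 4 rows, and the point at 0 is the library with 0 reads of the inner mt-Rnr1 row.

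Among the high-level rows, mt-Nd2 and the mt-Rnr2 and mt-Nd1 row fell. mt-Nd2, a complex I subunit, held 210870, 193870, 216020, 220270 and 188090 normalised counts untreated, and 116890, 118310, 94206, 129000 and 78501 at 1 day. The ranges do not overlap, and the log2 fold change was -0.96 ± 0.25 (SE, limma adjusted p 0.0123). The mt-Rnr2 and mt-Nd1 row held 316920, 253780, 297680, 284280 and 257930 untreated, and 180770, 195390, 170170, 206070 and 127940 at 1 day. It too did not overlap, with a log2 fold change of -0.69 ± 0.20 (SE, adjusted p 0.0248), but its call was lost without untreated replicate 1 (adjusted p 0.0568), without replicate 5 at 1 day (0.0604) or without the filter on low values (0.0519).

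The remaining 7 rows did not pass at 1 day. 3 of them, mt-Nd3 (log2 fold change -0.47, limma adjusted p 0.0764), mt-Nd4l and mt-Nd4 (-0.69, 0.078) and mt-Nd5 and mt-Cytb (-0.53, 0.152), had no overlap between groups. How many of all rows tested separate in this way was not counted, here or in the other comparisons. mt-Co1 did overlap. It held 1253900, 1195700, 1249900, 1251100 and 1090800 normalised counts untreated, and 1088700, 1277200, 1054200, 1250200 and 753370 at 1 day, with a log2 fold change of -0.18 (adjusted p 0.64). The control region row (-0.17, adjusted p 0.625) and its inner row (-0.12, adjusted p 0.798) likewise overlapped.

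The chromosome 1 copy rows split in the same way by level. The inner mt-Atp6 copy row held 247.6, 344.45, 1284.3, 251.02 and 203.34 normalised counts untreated, and 6.7372, 35.102, 19.203, 9.7216 and 5.4775 at 1 day. The mt-Co1 copy row held 2531.4, 3085.9, 6655.8, 2530.1 and 1948.7 untreated, and 328.2, 1242, 745.06, 498.58 and 251.97 at 1 day, and fell by 2.54 on the log2 scale (adjusted p 0.000689). Neither row overlapped between the groups, and the inner mt-Atp6 copy row, with a log2 fold change of -4.76 (adjusted p 0.000231), changed by more than any chrM row. The high-level copy rows did not pass: mt-Atp6 and mt-Co3 gave a log2 fold change of -0.46 (adjusted p 0.158) and mt-Co2 one of -0.24 (adjusted p 0.334).

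**Figure D3:**
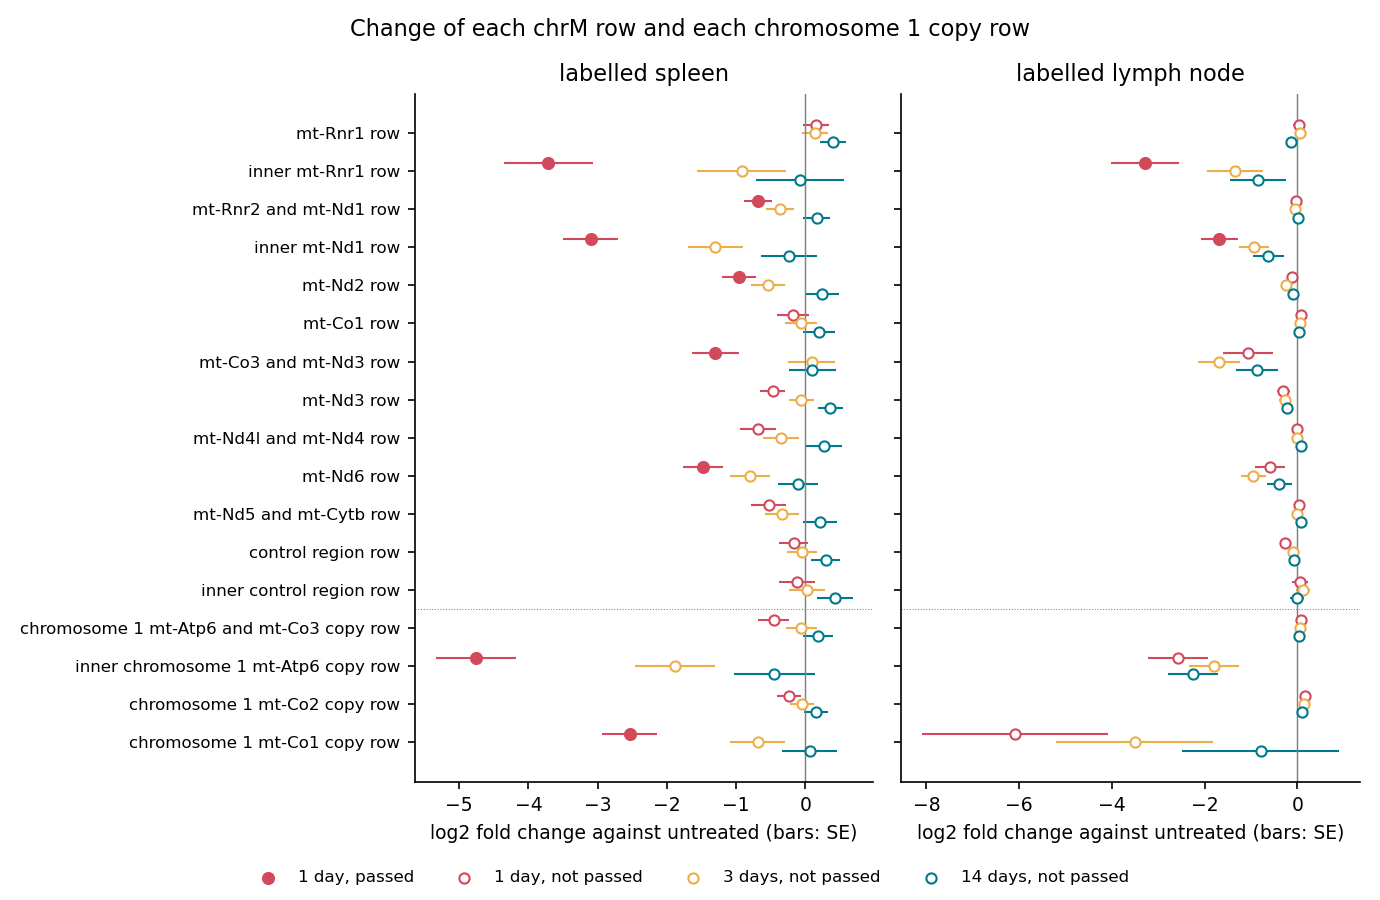
Log2 fold change against untreated (bars: SE) of each chrM row and, below the dotted line, each chromosome 1 copy row, for 1, 3 and 14 days under both tissue labels. Filled points passed the limma test; the x axes differ between panels, and under the spleen label the 6 chrM rows that passed at 1 day lie between -3.71 and -0.69.

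At 3 days under the spleen label 0 of the 13 rows passed with all libraries, against 5.55% of all rows tested in either direction (limma). An unadjusted p under 0.05 was reached by 3 of the 13 and by 4007 of all 18243 rows. Of the 13, edgeR called 0 and DESeq2 1. A looser rule, an unadjusted p up to 0.05 plus a change of 1.5-fold or more, passed 2 of the 13, against 3.40% of all rows. Replicate 1 decided this count. It held 325830 normalised counts of mt-Nd2 against 100240, 122460, 98234 and 144940 in the other 4, and 9780.6 of mt-Nd6 against 4033.5, 3883.4, 2786 and 3411. Without it 6 of the 13 rows passed, all lower, where 7.13% of all rows tested fell in that fit. They were mt-Nd2 (-0.84, adjusted p 0.00231), mt-Nd6 (-1.10, 0.0041), mt-Rnr2 and mt-Nd1 (-0.61, 0.00909), inner mt-Nd1 (-1.58, 0.00973), mt-Nd5 and mt-Cytb (-0.61, 0.0395) and mt-Nd4l and mt-Nd4 (-0.64, 0.0412). The inner mt-Rnr1 row, at 92.019, 79.957, 65.63, 41.393 and 33.927 normalised counts, overlapped the untreated range by replicate 1 alone. The other 4 lay below the untreated minimum of 79.99, the highest of them just so. Without replicate 1 the row did not pass (-1.08, limma adjusted p 0.338). The mt-Co3 and mt-Nd3 row, at 510.94 to 861.38, overlapped the untreated range too.

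At 14 days all 13 rows overlapped their untreated ranges. 0 of the 13 rows passed against untreated, where 0% of all rows tested passed (limma; 1 of the 13 and 510 of all rows had an unadjusted p under 0.05, edgeR and DESeq2 called 0 of the 13, and over all rows 0 and 1). The log2 fold changes ran from -0.24 to 0.42. The inner mt-Rnr1 row held 88.736, 145.76, 77.26, 59.979 and 218.48 normalised counts, and the inner mt-Nd1 row 306.37, 456.1, 387.81, 193.97 and 841.64, both overlapping the untreated values.

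Between 1 and 14 days 8 of the 13 rows rose and none fell, where 5.22% of all rows tested rose and 5.41% fell. This comparison shares the libraries at 1 day with the one above. The inner mt-Rnr1 row rose by a log2 fold change of 3.63 (limma adjusted p 0.00257), inner mt-Nd1 by 2.86 (0.000692), mt-Nd6 by 1.37 (0.00656) and mt-Nd2 by 1.19 (0.00587), each without overlap. The mt-Nd3 row (0.83, adjusted p 0.00712), mt-Rnr2 and mt-Nd1 (0.85, 0.012), mt-Co3 and mt-Nd3 (1.41, 0.013) and mt-Nd4l and mt-Nd4 (0.96, 0.0254) rose too, though mt-Co3 and mt-Nd3 overlapped in range and mt-Nd4l and mt-Nd4 passed in only 5 of 10 fits without a library. mt-Co1 (0.38, adjusted p 0.315) and mt-Rnr1 (0.25, 0.425) did not pass.

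Under the lymph node label the changes were fewer. At 1 day both inner gene rows fell, 2 of 13, where 0.329% of all rows tested fell. The inner mt-Rnr1 row held 12.248, 141.15 and 38.675 normalised counts untreated, and 3.3076 and 3.3573 at 1 day, the latter being 4 and 3 reads. The groups do not overlap, and the log2 fold change was -3.28 ± 0.73 (SE, limma adjusted p 0.0364). The inner mt-Nd1 row held 163.31, 331.91 and 201.11 untreated, and 125.69 and 36.93 at 1 day, with a log2 fold change of -1.68 ± 0.40 (SE, adjusted p 0.0499). Fits that leave out a library at 1 day keep 1 sample there, which is assumed to vary like the other groups. Neither row passed with edgeR, without the filter on low rows, with these 2 groups fitted alone, with library weights or with the replicate block, and 1 passed with DESeq2 or TMM scaling. Both calls were lost without untreated replicate 2 (adjusted p 0.133 and 0.196), without untreated replicate 3 (0.0844 and 0.0959) and without replicate 2 at 1 day (0.168 and 0.407). Without replicate 1 at 1 day, the library with the acinar genes, inner mt-Rnr1 was lost (0.188) and inner mt-Nd1 passed (0.0144), and without untreated replicate 1 the reverse held (0.00749 and 0.0615).

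For the lymph node label at 3 days, 0 of 13 rows passed, against 1.24% of all rows in either direction (limma). An unadjusted p under 0.05 was reached by 6 of the 13 and by 2694 of all 18215 rows. Of the 13, edgeR called 0 and DESeq2 1. The looser rule passed 4, against 3.38% of all rows. mt-Nd2 held 92016, 78504, 96336 and 86422 normalised counts against 102070, 107710 and 101360 untreated, and mt-Nd6 942.38, 766.81, 933 and 1197.9 against 1457.5, 2946.4 and 1422.1. Both lay wholly below the untreated range, with log2 fold changes of -0.24 (limma adjusted p 0.188) and -0.95 (adjusted p 0.114). So did the mt-Co3 and mt-Nd3 row, at 49.53 to 135.9 against 197.0 to 693.6, and the inner mt-Nd1 row, at 81.55 to 150.2 against 163.3 to 331.9. The log2 fold changes of the 13 rows ran from -1.69 to 0.12. At 14 days 0 of 13 passed, where 0.791% of all rows did (limma; 0 of the 13 and 2157 of all rows had an unadjusted p under 0.05, and edgeR and DESeq2 called 0 of the 13). Between 1 and 14 days 0 of 13 passed, against 0.401% (limma; 2 of the 13 and 2333 of all rows had an unadjusted p under 0.05, and edgeR and DESeq2 called 0 of the 13), and 2 passed the looser rule, against 4.28%. mt-Co1 was between 845840 and 990710 in all 13 libraries.

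Nuclear genes of the respiratory chain, those of complex II included, moved the other way at 1 day under the spleen label. At 1 day 44 of 76 nuclear genes of the respiratory chain rose and none fell, where 8.56% of all rows tested rose, and their median log2 fold change was 0.37. In fits without a library 39 to 47 passed. By complex, 22 of 37 genes of complex I rose, 2 of 4 of complex II, 5 of 10 of complex III and cytochrome c, 6 of 10 of complex IV and 9 of 15 of the ATP synthase. Ndufc1, a complex I subunit, went from 533.1 ± 37.43 to 1362 ± 347.2 normalised counts (SD, n = 5; log2 fold change 1.32 ± 0.19, SE, limma adjusted p 0.000379). Cox5a, a complex IV subunit, held 2524, 2650, 3030, 2582 and 2232 untreated, and 4519, 6448, 4883, 5246 and 4730 at 1 day, without overlap. Ndufs4 of complex I (0.76, adjusted p 0.000606) and Uqcrfs1, the Rieske protein of complex III (0.83, 0.000709), rose as well.

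At 3 days 10 of the 76 genes rose under the spleen label, where 2.82% of all rows rose. Under the other settings 3 (with the 2 groups fitted alone) to 43 (with library weights, 42 higher and 1 lower) of the 76 passed. The count also depended on single libraries, as did that of all rows. Without replicate 1 it was 24 higher and 1 lower, where 8.12% of all rows rose and 7.13% fell. It was 0 without replicate 3, where 0.866% of all rows passed in either direction, and 0 without replicate 5, where 1.07% did. Cox5a held 2485 in replicate 1 and 4475, 4799, 4473 and 5204 in the other 4, so the library that stood apart in the mitochondrial rows did so in Cox5a, within the untreated range. Ndufc1 (0.86, adjusted p 0.0139), Cox5a (0.68, 0.0167), Ndufs4 (0.50, 0.0224) and Ndufs5 (0.54, 0.026) had the smallest p. At 14 days 0 of 76 passed against untreated (limma; 0 by edgeR or DESeq2; median 0.12), and 26 fell between 1 and 14 days, where 5.41% of all rows fell, among them Ndufc1 (-1.14, adjusted p 0.00192), Atp5l of the ATP synthase (-1.15, 0.00192), Ndufs4 (-0.66, 0.00281) and Cox5a (-0.85, 0.00285). None of the 76 passed in any of the 4 comparisons under the lymph node label (limma; edgeR called 0, and DESeq2 1 at 1 day and 1 at 3 days). An unadjusted p under 0.05 was reached by 3 to 11 of the 76, and by 2157 to 2726 of all 18215 rows. Few rows passed there at all, in either direction 1.21% at 1 day, 1.24% at 3 days and 0.791% at 14 days, and 0.401% between 1 and 14 days.

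**Figure D4:**
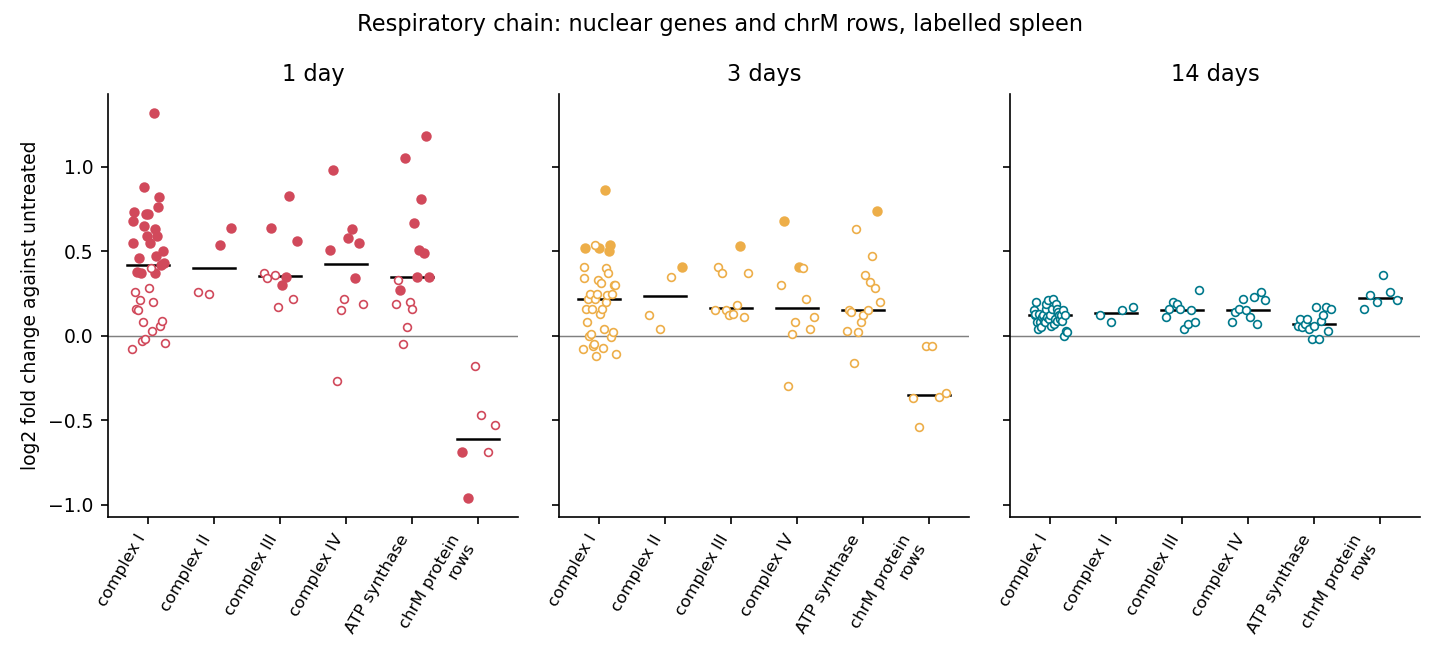
Log2 fold change against untreated under the spleen label of 76 nuclear respiratory chain genes by complex (complex III with cytochrome c), and of 6 chrM rows that hold protein genes, at 1, 3 and 14 days. Filled points passed the limma test and black bars are medians; at 1 day all 5 complexes have medians of 0.35 to 0.43, and the chrM rows lie between -0.96 and -0.18.

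Genes that act on mitochondrial RNA moved by less. Under the spleen label 3 of 17 genes of mitochondrial DNA transcription and replication rose at 1 day, where 8.56% of all rows rose: Tfam, which packages the DNA and starts transcription (log2 fold change 0.36, limma adjusted p 0.0363), the helicase Twnk (0.28, 0.0395) and Mterf3 (0.30, 0.0468). The median over the 17 was 0.14, and in fits without a library 0 to 1 of them passed. Polrmt, the RNA polymerase, gave -0.15 (adjusted p 0.138). Of 21 genes of RNA processing and stability 6 rose, against the same 8.56%, among them the RNA-binding protein Grsf1 (0.34, adjusted p 0.00116), Fastkd2 (0.37, 0.00164), Fastkd1 (0.63, 0.00694) and Lrpprc (0.30, 0.00434), which with Slirp (0.45, 0.0215) stabilises mitochondrial mRNA, and the poly(A) polymerase Mtpap (0.33, 0.0076). Lrpprc went from 2484 ± 121.3 to 3062 ± 168.7 normalised counts (SD, n = 5), and Elac2, which cuts the tRNA ends, gave -0.02 (adjusted p 0.827).

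At 3 days Fastkd2 (0.42, adjusted p 0.00518) and Lrpprc (0.27, 0.0249) rose, 2 of 21, where 2.82% of all rows rose. In fits without a library 1 to 5 of the 21 passed, the 5 without replicate 1 at 3 days, and under the other settings 1 to 10, the 10 with library weights. Between 1 and 14 days 5 of the 21 fell, where 5.41% of all rows fell, with Grsf1 (-0.29, adjusted p 0.00499), Lrpprc (-0.31, 0.00557), Fastkd1 (-0.61, 0.0131) and Mtpap (-0.31, 0.0173) leading by p. Of 13 genes of mitochondrial translation, the elongation factor Tufm (0.27, adjusted p 0.0194) and Mrrf (0.27, 0.035) rose and Mtif3 fell (-0.25, 0.0325) at 1 day, where 8.56% and 8.05% of all rows did, and 0 to 3 passed in fits without a library. Of 6 regulators, Esrra rose (0.27, adjusted p 0.032) and Pprc1 fell (-0.24, 0.0327) at 1 day, 1 of 6 in each direction against those shares. The median log2 fold changes at 1 day were 0.09 (RNA processing and stability), 0.18 (translation) and -0.19 (regulators). Pprc1 rose between 1 and 14 days (0.25, adjusted p 0.0341), where 5.22% of all rows rose. None of the genes of these 4 lists passed under the lymph node label (limma; edgeR and DESeq2 called 0), where between 0.401% and 1.24% of all rows did. An unadjusted p under 0.05 was reached by 0 to 1 gene per list and comparison, and by 2157 to 2726 of all 18215 rows.

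Markers of other cell types and RNA without a poly(A) tail are given beside these results, and their part in them was not tested. Under the spleen label all 8 white adipocyte markers had reads, with summed levels of 32480 to 178100 normalised counts untreated and 106200 to 459400 at 1 day, when 1 of the 8 rose, against 8.56% of all rows. The later ranges were 52230 to 218300 (3 days) and 46120 to 227700 (14 days). Replicate 5 at 1 day, with the lowest mitochondrial share, had the lowest adipocyte sum of its group (106200). The 3 brown adipocyte markers summed to 105.6 to 931.7 untreated and 264.0 to 1811 at 1 day, with overlap, and limma called none of them (1 of the 3, and 5628 of all 18243 rows, had an unadjusted p under 0.05). The 8 erythroid markers summed to 2841 to 12000 untreated and 5918 to 25760 at 1 day under that label, again with overlap and none of the 5 tested called (2 of the 5, and the same 5628 of all rows, had an unadjusted p under 0.05). The 8 skeletal muscle markers summed to 213.7 to 327.7 in untreated libraries labelled spleen, 201.6 to 220.9 at 1 day and 200.7 to 223.2 at 3 days, both overlapping untreated, and 232.3 to 288.4 at 14 days. Of the 4 tested, 1 fell at 1 day, against 8.05% of all rows, and 1 rose between 1 and 14 days, against 5.22%. In libraries labelled lymph node the muscle sum was between 180.7 and 290.2. The erythroid markers there summed to between 1453000 and 3060000 untreated, between 994200 and 2141000 at 1 day, and between 320900 and 1389000 at 3 days, when 5 of the 8 fell, as did 0.906% of all rows. At 14 days the sum was between 794000 and 1187000, also wholly below untreated, and 1 of the 8 fell, as did 0.681% of all rows. The 3 lymph node markers summed to between 6198 and 8364 untreated and between 12780 and 14430 at 1 day under that label, without overlap, and 1 of the 2 tested rose, against 0.884% of all rows. Glycam1 held at most 12.38 normalised counts in these libraries, so the sum came almost wholly from the other 2 genes. Which cells they come from was not tested. At 3 days, where mt-Nd2 and mt-Nd6 lay below the untreated range, these markers summed to between 8705 and 13210, wholly above untreated, and at 14 days to between 8008 and 11530, with overlap. The 3 spleen markers in those libraries summed to between 9731 and 10490 untreated, 9814 and 10040 at 1 day, 9224 and 11260 at 3 days, and 6713 and 8864 at 14 days, the last wholly below untreated. Without the haemoglobin rows in the total, the mitochondrial share under that label averaged 5.49% untreated and 5.24% at 1 day. RNA that mostly lacks a poly(A) tail, chiefly replication-dependent histone mRNA, summed over the 65 rows of 67 genes to 4258 to 5324 normalised counts in the untreated libraries labelled spleen and to 5402 to 8129 after 1 day of NAM, without overlap, in the comparison where 6 of the 13 mitochondrial rows fell. The sums at 3 days (5251 to 6372) and 14 days (4483 to 6366) overlapped untreated. Of 23 tested rows of this list, 3 rose at 1 day, against 8.56% of all rows: Hist1h2ae (2.58, limma adjusted p 0.00385), Hist1h1c (0.61, 0.00449) and Hist2h2be (0.41, 0.00462). Between 1 and 14 days 1 of the 23 rose, against 5.22%: Terc (0.96, adjusted p 0.0136), at 32.17 and 62.79 normalised counts on average. In that comparison 2 fell, against 5.41%: Hist1h1c (-0.52, 0.0172) and Hist1h2bg (-1.71, 0.0259). For the lymph node label the same sum was 7019 to 7914 untreated and 8206 to 9002 at 1 day, when both inner gene rows were lower, and these groups do not overlap. At 3 days it was 7015 to 8244 and at 14 days 6650 to 7250, both overlapping untreated.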

How the data were processed

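Poly(A) RNA of 33 libraries was sequenced in pairs of reads (TruSeq mRNA kit). The authors deposited 1 table of normalised read counts, a linear signal per gene row in which reads are divided by a DESeq2 size factor; the submitters' processing notes name STAR 2.4.0, mm10 and DESeq2, and strand use is not given in the sources used here. Groups and replicate numbers came from the sample titles, and 0 per-library columns were left unmapped. Nothing in the labels says that replicates are separate animals, so p-values measure the spread between these samples.

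Values were whole multiples of a step in each library (100% of values, within 0.1 reads), which returned whole reads. The deposited normalised counts were tested on log2(value + 1) with limma 3.58.1 (R 4.3.3, trend, two-sided), all 4 groups of a label in 1 fit, on rows with a mean of at least 10 (18243 under the spleen label, 18215 under the lymph node label), with Benjamini-Hochberg adjustment over all of them and a threshold of 0.05. All 13 members passed the filter under both labels. On the log2(value + 1) scale the change of a low row is understated.

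As alternatives edgeR 4.0.16 and DESeq2 1.42.0 were run on the recovered reads, and over all rows called 2976 and 3368 at 1 day, 1084 and 1686 at 3 days, 0 and 1 at 14 days and 1949 and 2269 between 1 and 14 days under the spleen label. Under the lymph node label they called 222 and 540, 206 and 493, 160 and 381, and 107 and 385. The other alternatives were pseudocounts of 0.1 and 5, no filter, a minimum mean of 50, size factors without chrM rows, TMM, scaling to reads outside chrM, the groups compared alone, library weights, a replicate block, an unadjusted p up to 0.05 plus a change of 1.5-fold or more (the looser rule), and leaving out each library. The limma fit was tested on simulated data in which 200 rows changed by 1 on the log2 scale, among 18243 (spleen label) and 18215 (lymph node label) rows. At 1 day 65% and 68.5% of them were recovered. Over both labels and all times recovery ran from 62.5% (3 days, spleen label) to 77% (14 days, lymph node label). False calls made up 2.083% (14 days, spleen label) to 6.875% (3 days, lymph node label) of the calls. Smaller changes were not simulated.

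The members and gene lists were chosen with earlier results of these data known. Named were all chrM rows over protein or rRNA genes, up to 5 over tRNA genes or no gene, any other past the threshold, the chromosome 1 copy rows, and in each list up to 4 genes past the threshold with the smallest p per comparison, with Polrmt, Tfam, Lrpprc and Elac2 always. Where 6 or fewer genes of a list passed, others (Mtpap, Slirp) were named after their values were seen. Intervals and floors (3 reads) cover counting error only.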

Additional observations from a re-analysis of the deposited data

Results flagged for a closer look

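In 90 sets of values (rows, shares and their parts in groups of 4 or 5 libraries), 10 had a library far from the others of its group by Dixon's criterion, which chance gives in about 1 of 20 sets. Of 45 effects compared between the labels, 0 had all libraries moving in opposite directions.

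Untreated replicate 3 under the spleen label was high in low-level rows. It held 277.3 normalised counts of the inner mt-Rnr1 row (79.99 to 100.1 in the other 4), 1044 of the inner mt-Nd1 row (315.8 to 401.7) and 1563 of the mt-Co3 and mt-Nd3 row (498.5 to 556.7). The 5 low-level rows together took 0.5141% of its chrM reads, against 0.2589% to 0.3016%.

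Replicate 1 at 3 days under the spleen label was high in 5 rows. It held 413100 normalised counts of the mt-Rnr2 and mt-Nd1 row (171500 to 207000 in the other 4), 325800 of mt-Nd2 (98230 to 144900) and 640900 of the mt-Nd4l and mt-Nd4 row (200700 to 309500). It also held 9781 of mt-Nd6 (2786 to 4033) and 1154000 of the mt-Nd5 and mt-Cytb row (397800 to 558300).

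Under the lymph node label, replicate 4 at 14 days held 89610 normalised counts of mt-Nd2, against 100100 to 102000 in the other 3.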

How the results depend on the processing

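Of the single-row results under the alternatives, 2126 kept their direction and side of the threshold, 35 newly passed, 32 no longer passed and 0 reversed. The count of 6 rows at 1 day (spleen label) was 5 to 6 without a library, and that of 8 between 1 and 14 days 7 to 8. At 1 day it was 8 with 2 groups alone, 7 with library weights, DESeq2 or the looser rule, and 5 without the filter. Between 1 and 14 days it was 7 without the filter. It was 9 with the looser rule, a minimum mean of 50, scaling to reads outside chrM, library weights or edgeR. At 3 days (spleen label) the count of 0 became 2 under the looser rule, 1 with a minimum mean of 50, 6 with library weights, 1 with DESeq2 and 0 to 6 without a library, the 6 without replicate 1 of that group. At 1 day (lymph node label) the count of 2 was 1 with pseudocount 0.1, pseudocount 5, a minimum mean of 50, size factors without chrM rows, TMM or DESeq2, 0 without the filter, with 2 groups alone, library weights or edgeR, and 0 to 1 without a library. At 3 days (lymph node label) 0 became 4 under the looser rule, 2 with library weights and 1 with DESeq2, and between 1 and 14 days 2 under the looser rule. Beyond fewer or more rows tested and libraries left out, the cause was not tested.

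Without rows over rRNA genes the share of reads averaged 8.29% untreated, 6.38% after 1 day, 7.59% after 3 days and 9.5% after 14 days (spleen label), with 1 day (4.392% to 7.477%) still wholly below untreated (7.987% to 8.858%), and under the lymph node label 4.48% untreated, then 4.4% (1 day), 4.49% (3 days) and 4.7% (14 days). Without haemoglobin rows it was 5.49% untreated and 5.24% at 1 day (lymph node label).

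Replicate numbers share no stated origin, and residuals of same-numbered libraries correlated by -0.496 to 0.468 (30 pairs, spleen label) and -0.107 to 0.0789 (16 pairs, lymph node label), so they were not taken as pairing. With the replicate block the counts were 6 at 1 day, 0 at 3 days and 8 between 1 and 14 days (spleen label), and 0 at 1 day (lymph node label). Rows near 3 reads, such as inner mt-Rnr1 at 1 day, are limited by depth.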
